A study of Mus musculus with 8 samples.

Results

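The miR-17/92 and miR-106b/25 clusters are a pair of paralogous microRNA (miRNA) loci, and their 9 hairpins were followed here through growth arrest and cell-cycle re-entry. Both arms of the mouse hairpins of miR-17, miR-18a, miR-19a, miR-20a, miR-19b and miR-92a (miR-17/92) and of miR-106b, miR-93 and miR-25 (miR-106b/25) were counted, by name and without regard to their levels. This gave 17 mature arms among 436 mature miRNAs, and all 17 had reads. Of these, 15 passed the filter on low values used for the test, and 9, called main arms here, carried nearly all the reads. The material was NIH-3T3, an immortalised mouse embryo fibroblast line grown in 10% serum. In the serum experiment, starvation for 48 h was ended with medium holding 20% serum, and small RNAs were sequenced after 0 h (labelled G0), 12 h (G1), 16 h (S), 20 h (G2/M) and 24 h (G1). For contact inhibition, plating was at 12% confluency with later changes of medium, and libraries came from day 0 (asynchronous), day 3 (G0) and day 5 (G0). Each condition had 1 library, all from the same cell line, so ratios between single libraries have no replicate check. As bulk samples, they cannot tell fewer cells of a kind from less RNA per cell.

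A miRNA acts through its seed, bases 2 to 8 of the mature strand, which pairs with messenger RNAs and lowers their translation and stability. Both clusters are transcribed as one precursor per locus, from which each hairpin is cut and 1 arm is mostly kept, and both are known as direct targets of MYC and E2F factors, the regulators that drive cells from G1 into S phase. The miR-17 seed group is known to repress the cell-cycle inhibitor Cdkn1a, and miR-92a and miR-25 the pro-apoptotic Bcl2l11, so the clusters are known for promoting proliferation and survival. miR-106b/25 lies within Mcm7, which encodes a subunit of the replicative helicase and is itself a proliferation gene.

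The miR-17/92 hairpins lie on build GRCm38 at chr14:115043671-115044506, plus strand, within an exon of the only annotated transcript of the long noncoding gene Mir17hg (chr14:115042879-115046727). The miR-106b/25 hairpins lie at chr5:138165321-138165818, minus strand, inside Mcm7 (chr5:138164583-138172422). Of the 10 annotated Mcm7 transcripts, 2 hold all 3 hairpins in an intron, 1 overlaps Mir93 and Mir25 with an exon, and the others do not span the hairpins. The 9 main arms, as RefSeq gives them for GRCm38.p6, are shown because the results turn on their seeds and base composition. The seed is in capitals, and the first 4 share 1 seed.
miR-17-5p: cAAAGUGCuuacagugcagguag
miR-20a-5p: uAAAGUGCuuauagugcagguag
miR-93-5p: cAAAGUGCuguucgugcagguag
miR-106b-5p: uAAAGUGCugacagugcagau
miR-18a-5p: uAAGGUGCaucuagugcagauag
miR-19a-3p: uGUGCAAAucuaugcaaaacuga
miR-19b-3p: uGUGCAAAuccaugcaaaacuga
miR-92a-3p: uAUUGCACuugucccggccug
miR-25-3p: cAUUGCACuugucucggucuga
miR-17-5p and miR-20a-5p differ at 2 bases within the first 20, miR-17-5p and miR-93-5p at 4, miR-19a-3p and miR-19b-3p at 1, and miR-92a-3p and miR-25-3p at 3. A read was counted for an arm when its first 20 bases were identical to it, so these relatives were told apart. G and C make up 7 of the first 20 bases in miR-19a-3p, 8 in miR-19b-3p and miR-20a-5p, 9 in miR-18a-5p and miR-106b-5p, 10 in miR-17-5p and miR-25-3p, and 11 in miR-92a-3p and miR-93-5p.

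The libraries were not alike. Total reads ran from 707202 to 8512472 and miRNA reads from 137604 to 892547. Inserts taken to be marker oligonucleotides made up 59.6 to 91.5% of reads in the serum libraries, against 0.00399 to 0.0351% in the contact libraries. Inserts too short for a miRNA made up 28.1% of reads at 0 h, the starved G0 library behind every 0 h ratio below, against 0.566 to 1.83% in the others. The 12 h library stood apart too: at a common depth of 137604 miRNA reads it held 234 miRNAs, where the others held 306 to 371. Reads of the 9 main arms were also less varied at 0 h and 12 h. At 2073 such reads per library, 53.1 distinct sequences were expected at 0 h, 28 at 12 h, 125 at 16 h, 85.5 at 20 h and 73.3 at 24 h, against 131, 125 and 137 on contact days 0, 3 and 5. The 263 reads of miR-18a-5p at 0 h were 3 distinct sequences and the 237 of miR-17-5p were 4. The reads carry no molecular identifiers, so all intervals below, which are 95% and exact, cover counting error only. Fibroblast or mesenchymal miRNAs (5 of 5 listed) had reads in every library, at 3.37 to 19.6% of miRNA reads. Epithelial miRNAs (miR-200 family and miR-141) were at 0.288% at 0 h, with 4 of 5 seen, and at no more than 0.00653% elsewhere. Pluripotent or germ line miRNAs were at 0.0984% at 12 h, with 2 of 7 seen, and at no more than 0.0219% elsewhere. Blood miRNAs were seen only at 0 h (1 of 3, 0.0261%), and muscle and neural miRNAs reached at most 0.0583% and 0.0661%. Some listed markers had no arm defined from the reads and were not counted. They were miR-122-5p, the only liver marker, miR-223-3p and miR-451a-5p (blood), and miR-1a-3p and miR-133a-3p (muscle). Among pluripotent miRNAs they were miR-290a-5p, miR-302a-3p and miR-302b-3p. The part of the marker miRNAs in the results below was not tested.

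Together the 9 main arms took up between 1.0% (contact day 5) and 2.89% (contact day 3) of miRNA reads. miR-17/92 accounted for 0.726, 0.796, 1.22, 1.05 and 1.17% of miRNA reads at 0, 12, 16, 20 and 24 h after serum. On contact days 0, 3 and 5 it accounted for 0.894, 1.68 and 0.689%. The G0 libraries held both the highest share of miR-17/92 (day 3) and the lowest 2 (day 5 and 0 h). The day 3 share was 2.44 times the day 5 share. miR-106b/25 accounted for 0.383, 0.224, 0.473, 0.323 and 0.437% in the serum series and 0.559, 1.21 and 0.312% on contact days 0, 3 and 5, so it too was highest on day 3, 5.41 times its share at 12 h. miR-17/92 gave more reads than miR-106b/25 in every library, by 1.39 times (day 3) to 3.56 times (12 h). On the scale used for comparisons below, counts per 1000000 miRNA reads (CPM) after TMM scaling, which fits libraries to each other through miRNAs that change least, the same range was 4.11-fold for miR-17/92 and 9.29-fold for miR-106b/25. This widening comes with TMM factors of 1.17 to 1.43 in the serum libraries and 0.558 to 0.809 in the contact libraries, and levels are therefore compared within an experiment.

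**Figure D1:**
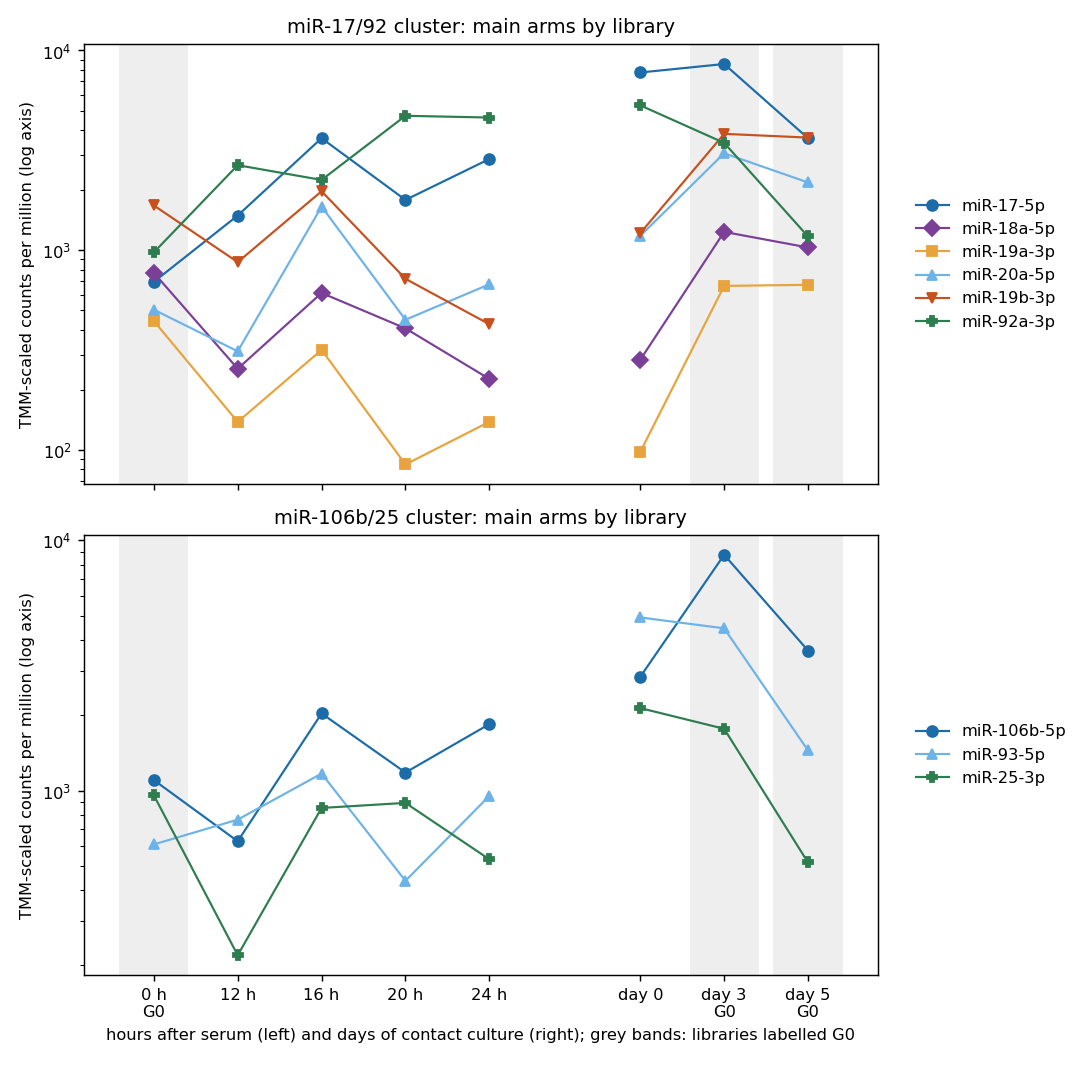
TMM-scaled CPM of each main arm on a log axis, for miR-17/92 (upper panel) and miR-106b/25 (lower panel), with hours after serum at the left, days of contact culture at the right, G0 libraries on grey bands and 1 library per point. miR-92a-3p and miR-17-5p run low at 0 h (975 and 694 CPM), while miR-19a-3p, miR-19b-3p and miR-18a-5p run higher on contact days 3 and 5 than on day 0.

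The 4 arms with the miR-17 seed were the most abundant seed group in every library but 20 h, and none of the 4 separated G0 from the other libraries by its level. miR-17-5p, the leading arm of the group, stood at 694, 1492, 3637, 1785 and 2861 CPM at 0, 12, 16, 20 and 24 h, and at 7757, 8554 and 3635 CPM on contact days 0, 3 and 5. It was lowest at 0 h within the serum series and lowest on day 5 within the contact series, but day 3, also G0, was its highest library. miR-106b-5p stood at 1101, 627, 2033, 1180.4 and 1843 CPM in the serum series and at 2848, 8754 and 3627 CPM in the contact series. Its peak on day 3 exceeded that of miR-17-5p, whereas on day 0 it was well below miR-17-5p. miR-93-5p, which comes from the same precursor as miR-106b-5p, stood at 609, 765, 1169, 436 and 952 CPM after serum and at 4919, 4450 and 1447 CPM on contact days 0, 3 and 5. Whether day 3 or day 0 was its highest library depended on the scaling, since its shares of miRNA reads on those days were 0.278, 0.360 and 0.0807%. miR-20a-5p stood at 504, 312, 1654, 448 and 675 CPM after serum and at 1179.5, 3057 and 2184 CPM in the contact series. In CPM all 4 arms had their highest serum value at 16 h, the library labelled S. By share of miRNA reads miR-106b-5p was highest at 24 h, at 0.242% against 0.237% at 16 h.

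miR-18a-5p, the only member with its seed and known to repress the matrix protein gene Ctgf, was among the scarcer arms. It stood at 770.4, 255, 611, 406 and 227 CPM at 0 to 24 h and at 283, 1235 and 1032 CPM on contact days 0, 3 and 5. The 3 G0 libraries held its 3 highest values in CPM, but by share of miRNA reads 16 h (0.0713%) lay above day 5 (0.0575%). The miR-19 arms followed a like order. miR-19b-3p stood at 1676, 872, 1974, 719 and 426 CPM after serum and at 1218, 3824 and 3662 CPM in the contact series, with 16 h above 0 h. miR-19a-3p, the least abundant main arm in every library but day 5, where miR-25-3p was lower, stood at 442, 138, 317, 84.6 and 138 CPM after serum and at 97.8, 663 and 671 CPM on days 0, 3 and 5. No other library reached its lowest G0 value.

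The arms with the miR-25/92 seed went another way. miR-92a-3p, the last hairpin of miR-17/92, stood at 975, 2665, 2248, 4709 and 4615 CPM at 0, 12, 16, 20 and 24 h and was lowest at 0 h. On contact days 0, 3 and 5 it stood at 5311, 3446 and 1172 CPM, with day 5 lowest. miR-25-3p, which has the same seed and lies in the other cluster, stood at 958, 219.7, 852, 893 and 531 CPM after serum and at 2136, 1765 and 516 CPM in the contact series. It shared the low day 5 value with miR-92a-3p, but in the serum series it was highest at 0 h, where miR-92a-3p was lowest.

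In contact inhibition the question was which members differed between arrested and asynchronous cells. The rule for single libraries was a TMM-scaled ratio of at least 2-fold with an interval that excluded 1, applied where either library of a pair, or any library of the set, gave 100 reads or more. Days 3 and 5 share the day 0 library, as the serum ratios below share 0 h. On both day 3 and day 5, 3 of 9 main arms were higher than on day 0 by that rule, against 16.8% of the 167 miRNAs compared, and none was lower, against 12.6%. miR-19a-3p was 6.77 times its day 0 level on day 3 (interval 4.19 to 11.6) and 6.86 times on day 5 (4.21 to 11.8). These ratios rest on 235 and 173 reads on days 3 and 5 and 18 reads on day 0. miR-18a-5p was 4.37 times its day 0 level on day 3 (3.27 to 5.94) and 3.65 times on day 5 (2.70 to 5.01). miR-19b-3p was 3.14 times its day 0 level on day 3 (2.72 to 3.63) and 3.01 times on day 5 (2.60 to 3.50). None of the 3 differed 2-fold between day 5 and day 3, with day 5 over day 3 ratios from 0.835 (miR-18a-5p, 0.715 to 0.975) to 1.01 (miR-19a-3p, 0.827 to 1.24). By share of miRNA reads all 3 were lower on day 5 than on day 3. miR-18a-5p was then at 0.576 times (0.492 to 0.672), miR-19a-3p at 0.698 times (0.570 to 0.853) and miR-19b-3p at 0.660 times (0.607 to 0.718).

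The other 6 arms parted company between day 3 and day 5. On day 3, miR-106b-5p was 3.07 times (2.80 to 3.38) and miR-20a-5p 2.59 times (2.24 to 3.01) its day 0 level, which brought the arms at least 2-fold higher to 5 of 9, against 18.3% of 153 miRNAs, with none lower, against 20.9%. miR-17-5p, miR-93-5p, miR-25-3p and miR-92a-3p were then at 1.10, 0.905, 0.826 and 0.649 times day 0. By share of miRNA reads all ratios of day 3 to day 0 are 1.43 times larger, which puts miR-93-5p at 1.30 and miR-25-3p at 1.19 times day 0. By day 5 those 4 were at least 2-fold lower than on day 0, against 27.2% of 158 miRNAs, while miR-18a-5p, miR-19a-3p and miR-19b-3p made 3 of 9 at least 2-fold higher, against 38%. miR-92a-3p was at 0.221 times (0.193 to 0.251), miR-25-3p at 0.242 times (0.197 to 0.295), miR-93-5p at 0.294 times (0.260 to 0.332) and miR-17-5p at 0.469 times (0.431 to 0.509) its day 0 level. From day 3 to day 5 alone, 5 of 9 arms were at least 2-fold lower, against 17.1% of 164 miRNAs, namely these 4 and miR-106b-5p (0.414 times, 0.385 to 0.446). No main arm was higher, against 26.8%. The median log2 ratio of the 9 arms was 1.37 on day 3 and 0.35 on day 5, beside -0.24 and 0.35 over all miRNAs compared.

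Base composition moved with these ratios. Across the 9 arms the log2 ratio to day 0 was lower the more G and C bases lay among the first 20, with Pearson's r of -0.90 on day 3 and -0.92 on day 5 (a description over 9 arms that share their libraries). The 5 arms with 9 or fewer G and C bases were those at least 2-fold higher on day 3, and the 4 with 10 or more were those at least 2-fold lower on day 5. Over all miRNAs compared the relation was weaker, with r of -0.25 over 153 miRNAs on day 3 and -0.26 over 158 on day 5. With library offsets estimated within 3 bins of G and C content, miR-19a-3p was 5.95 and 3.97 times its day 0 level on days 3 and 5, and miR-18a-5p 3.84 and 2.11 times. miR-19b-3p was then 2.76 times on day 3 and 1.74 times on day 5, under the 2-fold line. miR-92a-3p was 0.833 and 0.320 times, and miR-17-5p 2.20 and 0.677 times. The part of base composition in these ratios was otherwise not tested.

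**Figure D2:**
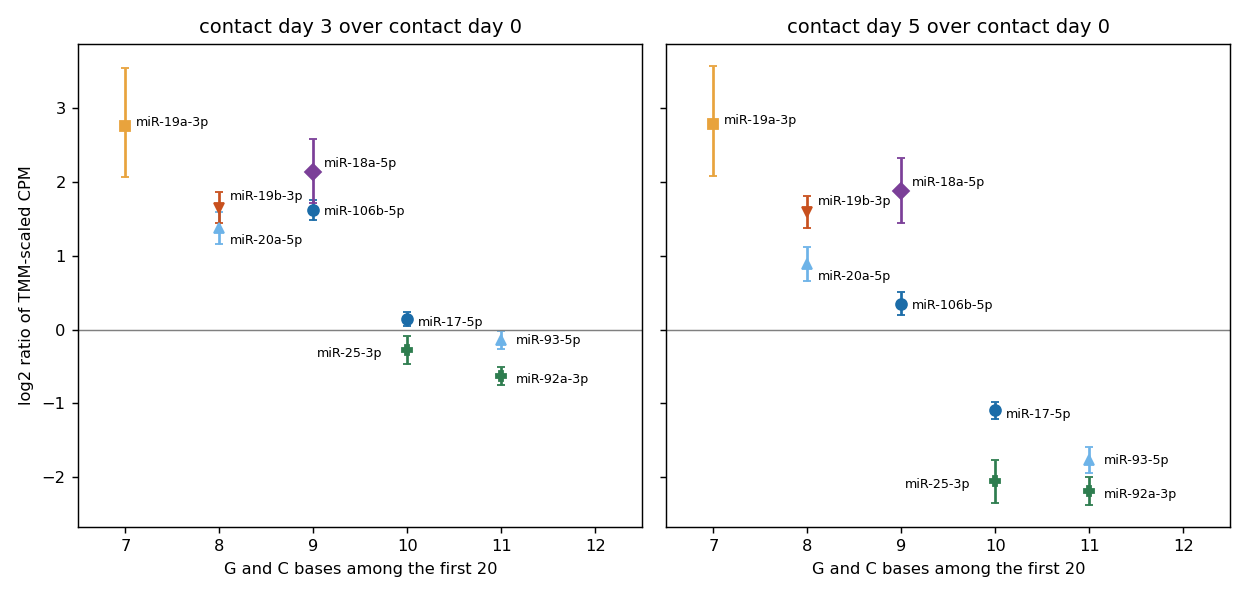
Log2 ratio of TMM-scaled CPM of each main arm on contact day 3 (left) and day 5 (right) over contact day 0, against the number of G and C bases among its first 20, with exact 95% intervals that cover counting error only. On day 5 the arms run from 2.78 for miR-19a-3p, with 7 G and C bases, to -2.18 for miR-92a-3p, with 11.

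After serum, 2 of 9 main arms were at least 2-fold lower at 0 h than at each of 12, 16, 20 and 24 h, against 6.22% of 225 miRNAs, and none was higher than at every later time, against 4%. miR-17-5p at 0 h was at 0.465 times its 12 h level (0.395 to 0.547), 0.191 times 16 h (0.167 to 0.218), 0.389 times 20 h (0.330 to 0.457) and 0.243 times 24 h (0.207 to 0.284). miR-92a-3p at 0 h was at 0.366 times its 12 h level (0.321 to 0.417), 0.434 times 16 h (0.386 to 0.487), 0.207 times 20 h (0.183 to 0.234) and 0.211 times 24 h (0.186 to 0.240). Both calls lie near the 2-fold line in 1 pair: with offsets by G and C content miR-17-5p was at 0.509 times 20 h and miR-92a-3p at 0.536 times 16 h, and neither was called. miR-19a-3p and miR-18a-5p at 0 h were above all 4 later libraries, by 1.39 to 5.23 times and 1.26 to 3.40 times, with 16 h nearest in both. With the offsets 12 h was nearest in both, and both intervals included 1. miR-19a-3p at 0 h was then 1.35 times 12 h (0.947 to 1.98) and miR-18a-5p 1.28 times (0.981 to 1.68). In single pairs, the main arms at least 2-fold higher at 0 h numbered 3 against 12 h (24.4% of miRNAs), 0 against 16 h (6.39%), 2 against 20 h (16.7%) and 3 against 24 h (21.7%). Those at least 2-fold lower numbered 2 (28.3%), 3 (14.6%), 2 (18.5%) and 2 (15.9%) in the same order. miR-19b-3p at 0 h was 1.92, 0.849, 2.33 and 3.93 times its level at 12, 16, 20 and 24 h, and with the offsets 0.813, 1.10, 2.41 and 2.86 times. Without the 16 h library miR-19a-3p was at least 2-fold higher at 0 h than at every other time by TMM scaling, but not with the offsets (1.35 times 12 h).

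The S phase library (16 h) was set against the G1 library before it (12 h), and here the outcome rested on the scaling. At 16 h, 7 of 9 main arms were at least 2-fold above 12 h, from 2.26 times for miR-19b-3p (1.98 to 2.59) to 5.30 times for miR-20a-5p (4.28 to 6.65), against 31.5% of 222 miRNAs, and none was lower, against 18.9%. miR-93-5p was at 1.53 times (1.32 to 1.77) and miR-92a-3p at 0.844 times (0.777 to 0.917). With offsets by G and C content, chosen after these ratios were seen, only miR-25-3p stayed at least 2-fold higher (2.50 times). miR-20a-5p was then at 1.73, miR-17-5p at 1.57 and miR-106b-5p at 1.06 times 12 h, while miR-18a-5p (0.782), miR-19a-3p (0.749) and miR-19b-3p (0.739) turned below it. By share of miRNA reads miR-19a-3p (1.93) and miR-19b-3p (1.90) fell under the 2-fold line. For these steps the percent of all miRNAs called is given for TMM scaling only. Calls with the offsets or by share therefore have no such background beside them. All these ratios rest on the 12 h library, which stood apart. From 16 h to 20 h, 5 arms were at least 2-fold lower, against 14.7% of 217 miRNAs. They were miR-19a-3p (0.267 times), miR-20a-5p (0.271), miR-19b-3p (0.364), miR-93-5p (0.373) and miR-17-5p (0.491). miR-92a-3p alone of the 9 arms was at least 2-fold higher at 20 h, at 2.09 times its 16 h level (1.95 to 2.25), against 12.4% of miRNAs. With the same offsets it was at 1.25 times and not called, and of the lower arms miR-17-5p, at 0.512 times, was lost. From 20 h to 24 h, 1 of the 7 main arms with enough reads was at least 2-fold higher, miR-93-5p at 2.18 times (1.70 to 2.82), against 3.05% of 131 miRNAs, and none was lower, against 5.34%. With the offsets miR-106b-5p (2.22) and miR-20a-5p (2.14) joined it.

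The 3 libraries labelled G0 were then set against the other 5 in one fit over 348 miRNAs, with the experiment as a term. No member was called by edgeR's quasi-likelihood test at a Benjamini-Hochberg adjusted p under 0.05, where 3 miRNAs (0.862%; 0.575% higher and 0.287% lower) were called over the whole table and 39 had an unadjusted p under 0.05. DESeq2's Wald test called 14 miRNAs and no member either. Of the 9 main arms, 3 had an unadjusted p under 0.05. miR-19a-3p had a log2 fold change of 2.00 (SE 0.78, edgeR adjusted p = 0.352), with 442 to 671 CPM in G0 libraries and 84.6 to 317 CPM in the others. miR-18a-5p had 1.47 (SE 0.61, edgeR adjusted p = 0.366), with 770.4 to 1235 CPM in G0 libraries and 227 to 611 CPM in the others. miR-92a-3p had -1.56 (SE 0.58, edgeR adjusted p = 0.308), with 975 to 3446 CPM in G0 libraries and 2248 to 5311 CPM in the others. Without the 0 h library these 3 values were 3.07, 2.32 and -0.84, and without the 12 h library 1.95, 1.41 and -1.61, in the same order. The rest ran from -1.13 (miR-17-5p, SE 0.62) to 1.15 (miR-19b-3p, SE 0.61), with miR-20a-5p at 0.21, miR-106b-5p at 0.32, miR-25-3p at -0.05 and miR-93-5p at -0.58. Of the minor arms, miR-20a-3p and miR-25-5p did not pass the filter, and the other 6 ran from -2.94 (miR-92a-1-5p, SE 1.99) to 0.92 (miR-17-3p, SE 1.43).

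miR-18a-5p and miR-19a-3p were the 2 main arms whose G0 libraries all lay above every other library in CPM, against 4.02% of the 348 miRNAs. By share of miRNA reads miR-19a-3p alone did so, against 3.45%. No main arm lay wholly below, against 4.31% by CPM and 2.3% by share. The median log2 fold change was 0.21 over the 9 main arms and -0.32 over all miRNAs tested. An interaction term compared the G0 difference of serum starvation with that of contact inhibition. None of the 348 miRNAs was called (0%, with 14 at an unadjusted p under 0.05, and none by DESeq2), and every tested member arm had an edgeR adjusted p of 0.867 or more. The largest interaction among main arms was -1.77 (SE 1.28, serum minus contact, log2) for miR-20a-5p.

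Ratios of reads inside a library need no scaling for depth, although base composition can still move with them. Reads of miR-19a-3p and miR-19b-3p together, over reads of miR-92a-3p, came to 2.17 at 0 h (1.90 to 2.48), 1.30 on day 3 and 3.70 on day 5, the G0 libraries. In the others the ratio was 0.379 at 12 h, 1.02 at 16 h, 0.171 at 20 h, 0.122 at 24 h and 0.248 on day 0. The G0 libraries did not overlap with the others, but day 3 exceeded 16 h by only 1.28 times. After the offsets by G and C content they still did not overlap, at 1.09 to 1.81 in G0 libraries and 0.214 to 0.782 in the others. miR-92a-3p made up 19.3, 16.6 and 9.48% of the miR-17/92 main-arm reads at 0 h and on days 3 and 5, against 21.5 to 57.8% in the other 5 libraries, and after the offsets 14.6 to 25.8% against 28.6 to 50.8%. miR-19a-3p made up 3.19 to 8.74% in G0 libraries against 0.617 to 3.04% in the others, and miR-18a-5p 5.94 to 15.2% against 1.78 to 5.85%, but both overlapped after the offsets, at 2.50 to 7.69% against 0.779 to 3.66% and 4.65 to 13.4% against 2.25 to 6.76%. The share of miR-17-5p in its cluster overlapped, at 13.7 to 41.2% in G0 libraries and 21.9 to 49.0% in the others.

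**Figure D3:**
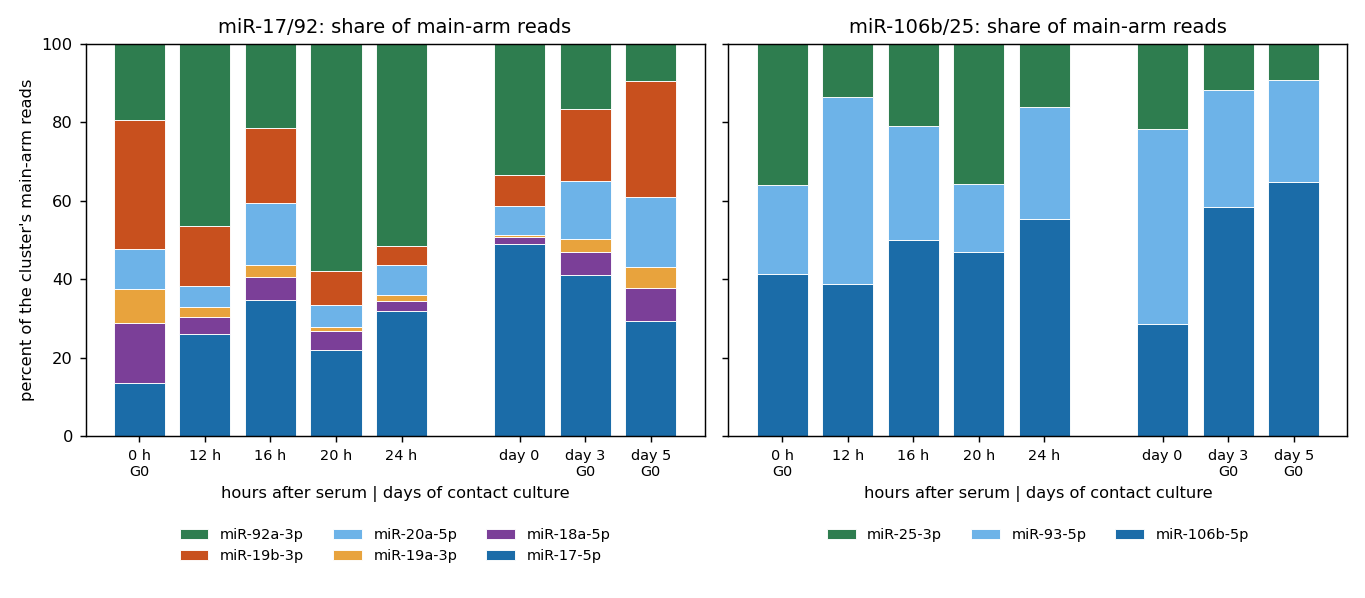
Share of each main arm among its cluster's main-arm reads, in percent, by library, for miR-17/92 (left) and miR-106b/25 (right). The green band of miR-92a-3p is narrowest in the 3 libraries marked G0, at 9.48 to 19.3% against 21.5 to 57.8% elsewhere.

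Within the miR-17 seed group the raw shares of 2 arms did not overlap between the states. miR-17-5p gave 23.9, 34.5 and 33.4% of that group's reads at 0 h and on days 3 and 5, against 42.8 to 46.7% in the other libraries. miR-106b-5p, from the other cluster, gave 33.3 to 37.9% in G0 libraries and 17.1 to 30.7% in the others. After the offsets both overlapped, with miR-17-5p at 25.8 to 44.4% in G0 libraries and 40.4 to 47.7% in the others, and miR-106b-5p at 24.0 to 32.3% and 20.5 to 34.8%. Within the miR-25/92 seed group, miR-92a-3p reads over miR-25-3p reads came to 1.02, 1.95 and 2.27 in the G0 libraries and to 2.49 to 12.1 in the others, with day 5 and day 0 only just apart, and after the offsets to 1.22 to 2.64 and 2.88 to 9.65. The shares of miR-25-3p, miR-93-5p and miR-106b-5p within miR-106b/25 overlapped between G0 and the other libraries. Among all 36 pairs of main arms, 6 had a read ratio that did not overlap between the G0 and the other libraries, and 5 of the 6 held miR-92a-3p. Among all 14196 pairs of the 169 miRNAs with at least 10 reads in every library, 11.4% did so. After the offsets the 5 pairs with miR-92a-3p did not overlap, against 11.6% of all pairs. Such separation was thus not rare in these libraries.

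**Figure D4:**
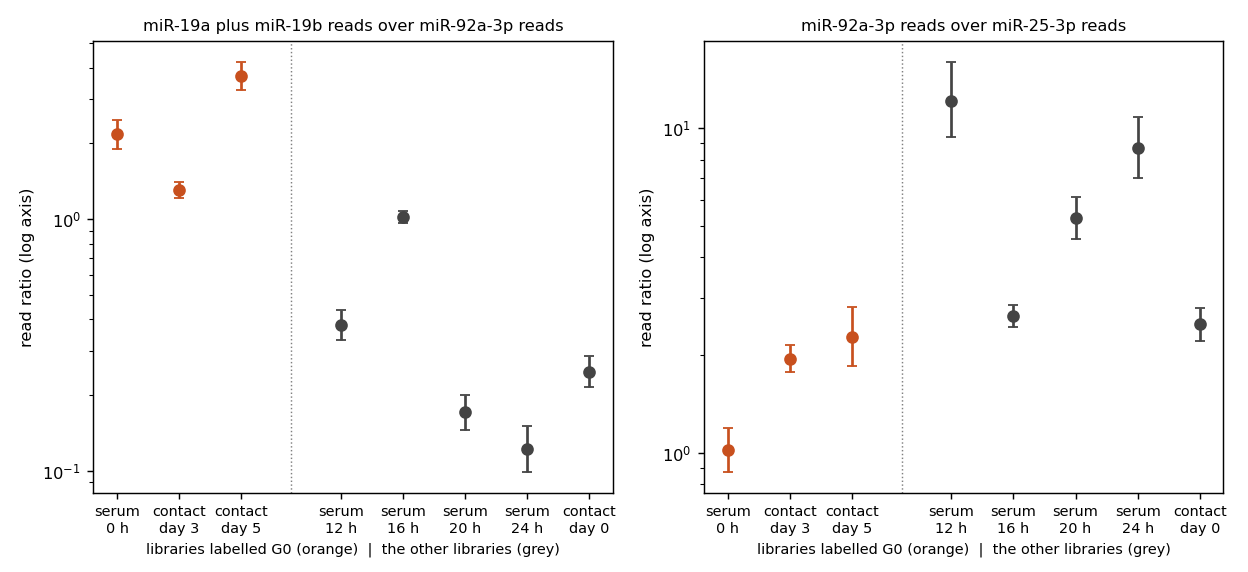
Read ratios inside each library on log axes, with the 3 G0 libraries in orange at the left of each panel and the other 5 in grey, and exact 95% intervals for counting error. Reads of the miR-19 arms over miR-92a-3p (left panel) run from 1.30 to 3.70 in G0 libraries and from 0.122 to 1.02 in the others, and miR-92a-3p over miR-25-3p (right panel) from 1.02 to 2.27 and from 2.49 to 12.1.

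One arm of each hairpin prevailed. Over all libraries the minor arm gave 1.71% of the 2-arm reads for miR-17-3p (187 reads), 3.12% for miR-18a-3p (60), 0.416% for miR-20a-3p (17) and 0.529% for miR-19b-1-5p (30). It gave 1.70% for miR-92a-1-5p (136), 1.35% for miR-106b-3p (107), 2.35% for miR-93-3p (115) and 0.328% for miR-25-5p (9). The table of mature sequences lists no 5p arm for miR-19a, and 2 perfect reads lay on the 5p side of that hairpin. The star strand of miR-92a-1 took a larger share in each contact library than in any serum library. It made up 5.60% of the 2-arm reads on contact day 0 (interval 4.28 to 7.18%), 3.25% on day 3 (2.34 to 4.38%) and 2.58% on day 5. In the serum libraries it reached at most 0.847%, with 0 reads at 0, 12 and 24 h. The day 5 value rests on 8 reads, and its interval (1.12 to 5.02%) overlaps those of 16 h (0.518 to 1.31%) and 20 h (0.367 to 1.52%). A count of 0 among 752 reads at 12 h allows up to 0.399%. The hairpin is shown with both arms in capitals, from GRCm38.p6 chr14:115044427-115044506, plus strand.
Mir92-1: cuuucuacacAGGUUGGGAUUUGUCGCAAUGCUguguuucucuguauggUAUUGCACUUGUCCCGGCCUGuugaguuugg

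Mature ends were sharp at the 5′ side, which sets the seed. Between 96.0% (miR-19a-3p) and 99.5% (miR-20a-5p) of perfect hairpin reads of 18 to 26 nt started at the RefSeq base. The 3′ side varied more. miR-92a-3p was mostly 22 nt, 1 base longer than its RefSeq form, in every library, and miR-106b-5p was mostly 22 nt in 7 of 8 libraries against 21 nt in RefSeq. Reads ending in added A alone made up a median of 13.6% over the libraries for miR-17-5p, 13.7% for miR-106b-5p and 13.4% for miR-20a-5p, but 0.213% for miR-19a-3p and 0.682% for miR-19b-3p. In the contact series the share for miR-17-5p was 14.3, 14.3 and 12.9% on days 0, 3 and 5, with little spread between arrested and asynchronous cells. In the serum series it was 0, 0.238, 5.94, 17.3 and 18.2% at 0, 12, 16, 20 and 24 h. The 237 reads at 0 h were 4 distinct sequences. At 0 h the share was 17.0% for miR-106b-5p, 14.5% for miR-20a-5p and 8.39% for miR-19b-3p. It was 0 there for miR-18a-5p, miR-19a-3p and miR-92a-3p, 2.88% for miR-93-5p and 2.45% for miR-25-3p. Over the main arms with at least 50 reads, the median share on contact days 0, 3 and 5 was 12.9, 9.25 and 9.12%. Over all miRNAs with at least 50 reads it was 9.48, 7.48 and 6.25%. At 0, 12, 16, 20 and 24 h the main-arm median was 2.45, 0, 5.94, 5.97 and 12.3%, beside 2.09, 0, 6.45, 7.55 and 9.01% over all miRNAs.

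Same-seed relatives outside both clusters were scarce. The X-linked paralog cluster gave 2 reads of miR-106a-5p, both at 16 h, and none of miR-18b-5p, miR-20b-5p, miR-363-3p, miR-19b-2-5p or miR-92a-2-5p in 2881361 miRNA reads. miR-19b-3p and miR-92a-3p can come from that cluster too. Of perfect reads anywhere on the hairpins, 6136 matched the miR-92a-1 hairpin alone, 57 the miR-92a-2 hairpin alone and 262 both. For miR-19b, 43 matched the miR-19b-1 hairpin alone, 59 the X-linked miR-19b-2 hairpin alone and 5313 both. These counts take in both arms: the 5p arm had 137 reads on miR-92a-1 and 28 on miR-19b-1, against 0 on either X-linked hairpin. Reads of miR-19b-3p itself that matched miR-19b-1 alone were therefore fewer than 43. miR-32-5p, which shares the miR-25/92 seed, had 211 reads, of which 146 were at 16 h, and none at 12 h or 24 h. The 16 h library was the deepest, and by share of miRNA reads miR-32-5p stood at 0.0164% there and 0.0156% at 0 h. miR-92b-3p had 89 reads, of which 44 were at 12 h. Neither was called in G0 (edgeR adjusted p = 0.889 and 0.762), and miR-367-3p had no read.

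The miRNAs whose levels ran most like those of the members differed between the seed groups. Among 69 other miRNAs with at least 100 reads in every library, log2 CPM of miR-17-5p ran closest to let-7e-5p and miR-24-3p (Pearson's r of 0.88 each over 8 libraries), let-7a-5p (0.84), let-7d-5p (0.82) and let-7c-5p (0.82). That of miR-19b-3p ran closest to miR-34c-5p (0.91), miR-29c-3p (0.88), miR-130a-3p (0.86), miR-322-5p (0.85) and miR-21a-5p (0.78). These are descriptions over libraries that share their scaling: on shares of miRNA reads the first 5 values lay between 0.55 and 0.73 and the second 5 between 0.66 and 0.85. Among the members, miR-20a-5p and miR-106b-5p of different clusters and 1 seed ran closest (0.94), miR-18a-5p with miR-19b-3p (0.91) and miR-19a-3p (0.90) next, and miR-19a-3p and miR-92a-3p of 1 precursor ran most opposite (-0.72).

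A list of 25 miRNAs known to be repressed by MYC, the activator of both clusters, was taken for comparison. Of the 24 tested, none was called in G0 by edgeR in either direction, against 0.862% of all 348 miRNAs tested. Their log2 fold changes were positive for 13, against 143 of the 348. Their median was 0.06, beside -0.32 over all miRNAs tested. Those furthest from 0 on the higher side were miR-30e-5p at 1.77 (SE 0.93), miR-29c-3p at 1.57 (SE 0.58) and miR-29b-3p at 1.51 (SE 0.70). On the lower side they were miR-146a-5p at -1.31, with an SE of 2.80 that exceeds the estimate, and let-7e-5p at -0.996 (SE 0.40). These miRNAs were named after their values were seen.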

How the data were processed

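The deposited files hold counts: each distinct 36-nt read, with the 3′ adapter still in it, and how often the authors sequenced it. The labels name an earlier publication for library preparation. How reads were called and filtered, and any aligner or build, is not given in the sources used here. From these counts, reads were trimmed in Python 3.11.15 (at least 6 adapter bases, 1 mismatch per 8). Inserts of 16 to 30 nt were assigned to mature arms by their first 20 bases. Arms of the members and the same-seed relatives were taken from RefSeq (GRCm38.p6), whatever their count. All other arms were defined by reads (at least 10, at least 50% at 1 start) on hairpins of GENCODE M21 or, where that had none, of RefSeq. Members thus entered by another rule than the miRNAs beside them. All 17 member arms matched RefSeq. Arms shared by hairpins (49 of 436) cannot be split.

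The test was edgeR 4.0.16 (R 4.3.3): TMM, robust quasi-likelihood, 2-sided, 348 miRNAs with at least 10 CPM in at least 3 libraries, 5 residual degrees of freedom. SE is the fold change over the root of F. Nothing in the labels marks libraries as separate cultures of 1 condition, so the p-values reflect the spread among these 8 libraries alone, phases included. Shares have Clopper-Pearson intervals, ratios exact conditional binomial ones, with a limit of 3 counts for 0. DESeq2 1.42.0, other scalings, filters and counting, and each library left out, were alternatives. The fit was tested on simulated data. Members and lists were chosen with earlier results of these data known. Named miRNAs were every member arm with reads, the same-seed relatives, the 5 nearest in level to miR-17-5p and to miR-19b-3p and, outside this rule and after their values were seen, 5 of the MYC-repressed list.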

Additional observations from a re-analysis of the deposited data

How the results depend on the processing

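No member was called in G0 under any alternative run. Over all miRNAs the G0 fit called 3, against 6 with offsets by G and C content, 8 without the filter, 14 with DESeq2, 1 without the experiment term and 0 to 12 with 1 library left out (0 without serum 0 h or 20 h, 1 without 24 h or contact day 5, 5 without contact day 3 and 12 without 16 h). The log2 change of miR-25-3p turned to 0.23 by total miRNA reads, 0.51 with G and C offsets, 0.22 without the experiment term, 0.034 with 18 bases and 0.022 with whole reads, and ran from -0.54 to 0.64 with 1 library left out. miR-20a-5p turned to -0.053 with G and C offsets. Without the experiment term miR-17-5p turned to 0.29 and miR-93-5p to 0.40. With 1 library left out, miR-17-5p ran from -1.79 to 0.0018, miR-20a-5p from -0.59 to 1.48 and miR-106b-5p from -0.35 to 1.47. miR-18a-5p (1.06 to 2.32), miR-19a-3p (1.40 to 3.07), miR-19b-3p (0.77 to 1.93) and miR-92a-3p (-1.99 to -0.84) kept their sign there.

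Arms called higher on both contact days numbered 1 with a minimum of 500 reads, which miR-18a-5p and miR-19a-3p do not reach, and 3 to 5 with 1 day left out. Arms called lower numbered 1 at 1.5-fold (miR-92a-3p) and 0 to 4 with 1 day left out. At serum 0 h, arms called lower numbered 1 by total reads (miR-17-5p), 0 with G and C offsets, 1 with 18 bases and 1 with whole reads (miR-92a-3p in both), and arms called higher 0 to 1 with 1 library left out. The range of miR-106b/25 shares was 4.50-fold with whole reads, and in CPM the ranges of the 2 clusters were 4.11-fold and 9.29-fold. Chosen after seeing the data, offsets by G and C content left 1 arm higher at 16 h than at 12 h (7 before) and 0 higher at 20 h than at 16 h (1 before), and gave 3 higher at 24 h than at 20 h (1 before). The percent of all miRNAs called is not given for the alternative settings in this paragraph. These counts of arms are therefore not a result about the members. The lowest G0 over the highest other miR-19 to miR-92a ratio was 1.47 with whole reads and 1.40 with G and C offsets. Except for the read minimum and the lower fold, the cause was not tested. No paired analysis was possible because each condition has 1 library and the labels give no replicate numbers.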

Other observations

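Some single-library values stood out from the other libraries of the same arm. miR-17-3p made up 30 of 267 reads (11.2%) of its hairpin's arms at 0 h, against 0 to 2.31% elsewhere. Counting only reads that matched the Mir17 hairpin over their whole length, 7 lay on the 3p side there, beside 233 on the 5p side. miR-93-3p made up 25 of 241 (10.4%) at 12 h, against 0 to 5.50% elsewhere. At 12 h, 53 of 265 perfect miR-93-5p reads (20%) started 1 base after the RefSeq start, against 0 to 2.56% with any other start elsewhere, and 20.2% of miR-17-5p reads there ended in added U alone, against 0 to 1.92% elsewhere.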
